A study of Arabidopsis thaliana with 3 samples.

Results

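The 300 variant sites of chromosome 4 of the plant Arabidopsis thaliana are described here, out of 1990 sites listed for the whole genome. They are every listed site of that chromosome, and no measured value was used to choose them. The study mapped the thm1 mutation by bulked segregant analysis, with genomic DNA from leaves sequenced in 3 libraries. WTa is a library of the wild-type genotype and gives the allele against which each site is read. The thm1_like pool (library T4) has the genotype label thm1 mutant, and the WTa_like pool (library T2) has the genotype label WT. Each group has 1 library, so no difference between the pools has a replicate check. The number of plants per pool, their age, the cross and the mutagen are not recorded in the sources used here. The SNP-index of a site in a pool is the share of its reads with the allele that WTa lacks. Delta is the index of the thm1_like pool less that of the WTa_like pool. Positions are those of the deposited table, on the TAIR10 build.

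Plants pooled by phenotype share the chromosome segment that holds the causal change, while unlinked segments stay mixed. Linked variants therefore approach a SNP-index of 1 in a pool chosen for a recessive mutant phenotype. The index moves back with distance as crossovers accumulate, and crossovers are rare around centromeres. Alkylating mutagens change guanine, and the change is read as G-to-A or as C-to-T depending on the strand. These statements are background and were not tested here.

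By the change from the allele of WTa, 160 sites were G-to-A, 19 were C-to-T, 60 were other substitutions and 61 were indels. The indels were short: 37 changed 1 base, 23 changed 2 bases and 1 removed 11 bases. That loss is shown because it is the longest and lies in the middle of the segment where most G-to-A sites were near fixation. It spans chr4:1727872-1727883 on the plus strand of TAIR10, and the capitals mark the 11 bases that are missing from the other allele.
WTa allele at the 11-base loss: tGAGTTTGCGAG
In the thm1_like pool 9 of 12 reads carried the loss, as did 8 of 19 in the WTa_like pool, while WTa was read 12 times there.

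Over the 300 sites the thm1_like pool had 7460 reads, with a median of 23 per site (7 to 73). The WTa_like pool had 7206 reads with a median of 22 (7 to 65), and WTa had 3719 reads with a median of 12 (3 to 32). At 23 reads the exact (Clopper-Pearson) 95% interval around an index near 0.5 runs from 0.306 to 0.732. With 0 of 23 reads a share of up to 13.0% remains possible. Intervals and limits cover counting error only. The allele of WTa was the reference one at 289 sites and the alternative one at 11, of which 10 were indels. At 8 sites WTa had fewer than 5 reads, and the sign of delta rests on those reads. At every listed site of the chromosome the higher of the pool indices was 0.3 or more. A site with a thm1_like index under 0.3 therefore had to be higher in the WTa_like pool, and the reverse holds as well.

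The comparison of the pools asked where on the chromosome thm1_like and WTa_like plants differ in the alleles they carry. The answer depended on the class of the site. For the 160 G-to-A sites the mean index was 0.764 for thm1_like (SD 0.203 over sites) and 0.364 for WTa_like (SD 0.149). The 61 indels had 0.262 in the thm1_like pool (SD 0.207) and 0.362 in the WTa_like pool (SD 0.123). Thus the WTa_like means of these classes lay close together while the thm1_like means lay far apart. The other substitutions had 0.365 and 0.397, and the C-to-T sites had 0.606 and 0.397, in the thm1_like and WTa_like pool respectively.

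The reads of each site were compared by Fisher's exact test (two-sided), with Benjamini-Hochberg adjustment at 0.05 over the 1816 nuclear sites that had at least 10 reads in both pools. The test compares these libraries and not the conditions, and linked sites come from the same plants. Of 267 tested sites on chromosome 4, 79 were higher in the thm1_like pool (29.6%), against 8.2% over all tested nuclear sites. Another 11 were lower (4.12%), against 4.41% over all tested nuclear sites. The excess over the genome was thus in the higher direction, and most of it lay in the G-to-A class. Of 140 tested G-to-A sites, 69 were higher, or 49.3% against 15% of nuclear G-to-A sites and 7.42% of those on the other chromosomes. No G-to-A site of chromosome 4 passed Fisher's test in the lower direction, against 1.68% of nuclear G-to-A sites, and 2 had an unadjusted p under 0.05. Of 17 tested C-to-T sites 6 were higher, or 35.3% against 4.79% of nuclear C-to-T sites. None was lower at an adjusted or unadjusted p of 0.05, against 4.17% of nuclear C-to-T sites that passed. Of 52 tested other substitutions 2 were higher (3.85%, against 2.42% of nuclear ones) and 3 were lower (5.77%, against 1.73%). Of 58 tested indels 8 were lower, or 13.8%, close to the 15.3% of nuclear indels. Another 2 were higher (3.45%, against 1.09%).

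**Figure D1:**
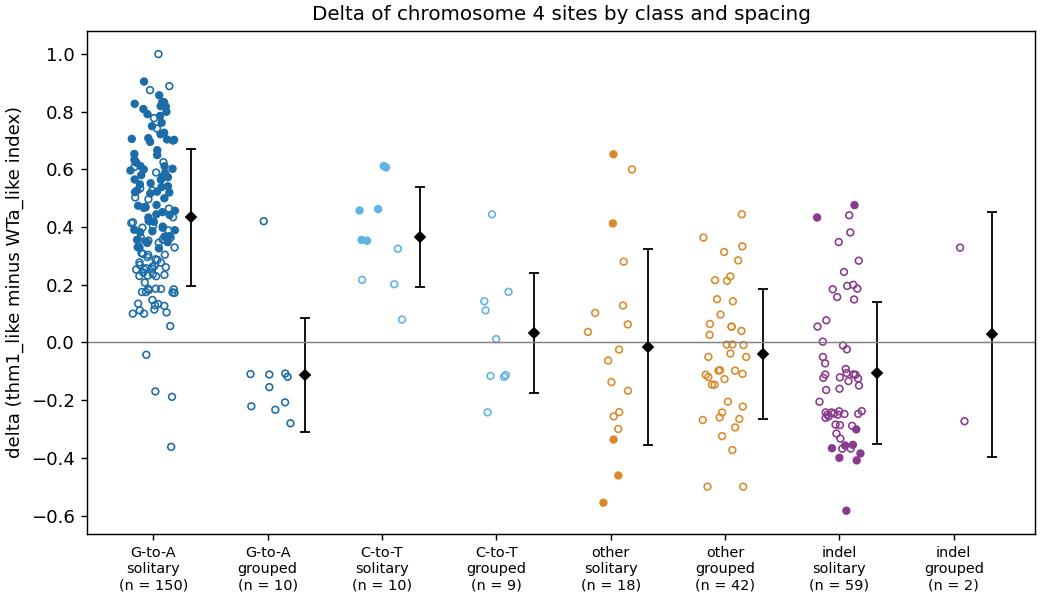
Delta (thm1_like index minus WTa_like index, vertical axis) of every chromosome 4 site, by class and by whether another listed site lies within 350 bp (grouped) or not (solitary). Filled points passed the adjusted Fisher's exact test, and diamonds with bars give the mean and SD over sites. The 150 solitary G-to-A sites lie almost all above 0, while the grouped sites of the classes spread around 0 and none of them passed.

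The index of the G-to-A sites and of the C-to-T sites differed with spacing, but that of the other substitutions did not. For the C-to-T sites spacing went with position. The sheared fragments averaged about 350 bp, per the labels, so sites closer than that can lie on the same fragments and are not separate measurements. This division was chosen after the values were seen. By it 237 sites were solitary and 63 were grouped in 19 clusters. The 150 solitary G-to-A sites had a mean thm1_like index of 0.798 (SD 0.153) and a mean WTa_like index of 0.364 (SD 0.151). Their mean delta was 0.434 (SD 0.237), with thm1_like the higher pool at 146 of them. The 10 grouped G-to-A sites had means of 0.244 and 0.356, and 9 of them were lower in the thm1_like pool. Of these 10, 3 lay in the same cluster and 2 in another. The G-to-A means thus lay on opposite sides of the WTa_like level according to spacing. Other substitutions did not divide in this way. Their mean thm1_like index was 0.376 at 18 solitary and 0.361 at 42 grouped sites, with mean deltas of -0.0149 and -0.0391. Only 2 indels were grouped.

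The 10 solitary C-to-T sites resembled the solitary G-to-A sites, with a mean thm1_like index of 0.790, a mean WTa_like index of 0.423 and a positive delta at all 10. The 9 grouped C-to-T sites had 0.401 and 0.368. The 63 grouped sites of all classes had mean indices of 0.351 (thm1_like) and 0.389 (WTa_like). None of the 56 tested grouped sites passed the adjusted test, and 10 had an unadjusted p under 0.05, 3 higher and 7 lower. Depth was alike, with thm1_like medians of 24 reads at grouped and 22 reads at solitary sites. All 90 sites that passed were solitary. Of the clusters, 12 held sites of more than 1 class, and all 19 lay between 1727769 and 5612025. Their part in the class means was measured by leaving them out, which raised the C-to-T mean delta from 0.209 to 0.367.

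Along the chromosome the thm1_like index of the solitary G-to-A and solitary C-to-T sites fell from near fixation in the upper arm to a lower and uneven level in the lower arm. Up to 3 Mb, 23 sites had a mean index of 0.931 (SD 0.0947) in the thm1_like pool and 0.265 (SD 0.123) in the WTa_like pool. From 3 to 5 Mb, which covers the centromere, 19 sites had 0.865 (SD 0.261) and 0.298 (SD 0.116). In the lower arm the 108 solitary G-to-A sites had 0.758 (SD 0.113) and 0.397 (SD 0.150). The mean delta of these regions, in that order and for G-to-A sites, was 0.667, 0.567 and 0.361. Both pools contributed: the thm1_like index fell by 0.173 between the arms while the WTa_like index was 0.132 higher in the lower arm.

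**Figure D2:**
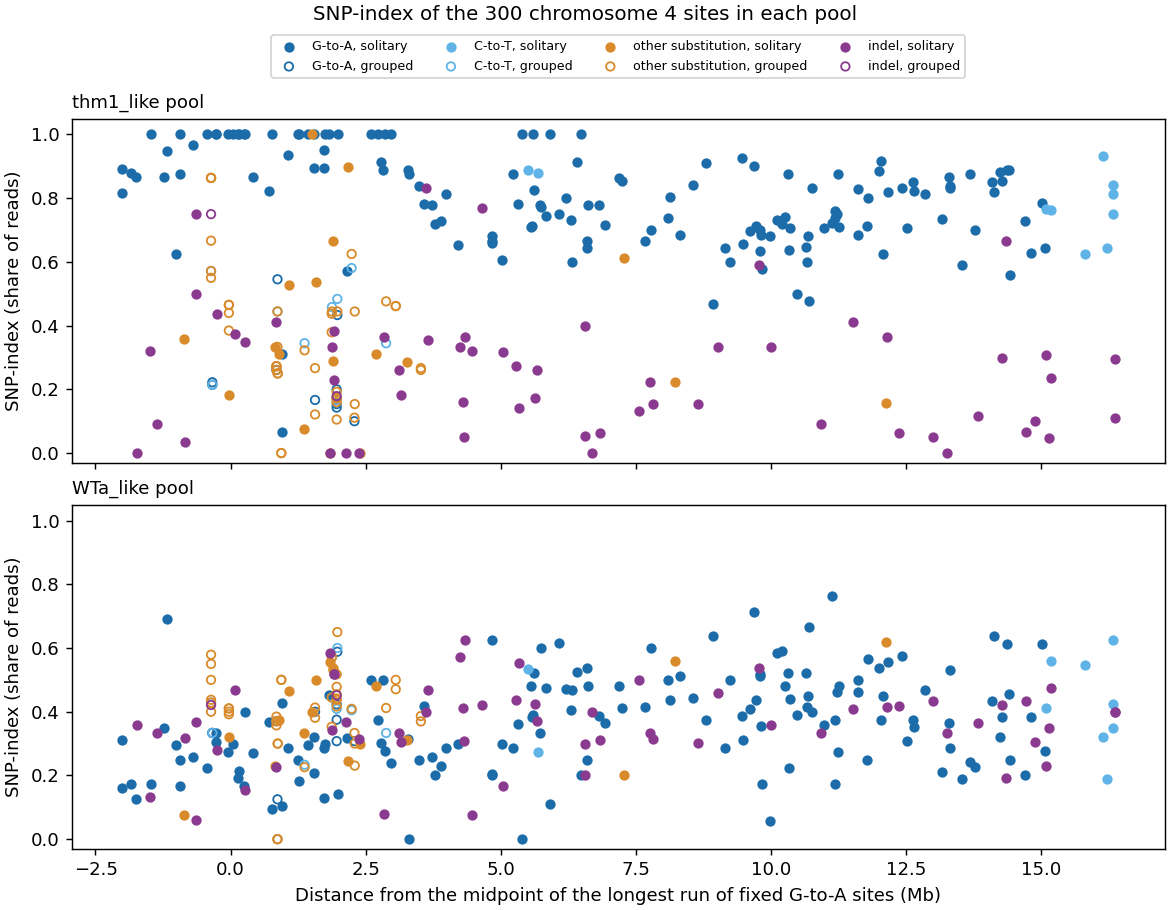
SNP-index of the 300 sites in the thm1_like pool (upper panel) and the WTa_like pool (lower panel) against distance in Mb from the midpoint of the longest run of fixed G-to-A sites. Filled points are solitary, open points grouped. In the thm1_like pool the solitary G-to-A sites lie at or near 1 on the left and mostly between 0.6 and 0.9 on the right, while the indels lie mostly below 0.5.

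Across the 150 solitary G-to-A sites, Spearman's rho with position was -0.436 for the thm1_like index, 0.382 for the WTa_like index and -0.485 for delta. These sites share libraries and linkage, so the values only describe the trend. Within the 108 sites of the lower arm the same values were -0.0279, 0.133 and -0.112. The rank correlations were thus closer to 0 within the lower arm than over the chromosome, although the level within the arm was uneven, as the bins show.

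In bins of 1 Mb the thm1_like mean was 0.895 in the first bin (7 sites), 0.924 in the second (7 sites) and 0.966 in the third (9 sites), which was the highest of the chromosome. The fall was not steady. The mean was 0.838 from 3 to 4 Mb, 0.911 from 4 to 5 Mb, 0.826 from 5 to 6 Mb and 0.694 from 6 to 7 Mb. It was back at 0.814 from 7 to 8 Mb and reached its lowest value, 0.679 (SD 0.113, 13 sites), from 12 to 13 Mb. Counting error alone gives a single site an SD of about 0.105 at those depths, so the spread inside that bin was close to counting error. From 14 to 15 Mb the mean was again 0.808 (SD 0.0900, 9 sites).

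Over wider stretches, whose bounds were drawn after the values were seen, delta was 0.444 from 5 to 9 Mb (SD 0.223, 37 sites) and 0.294 from 9 to 15 Mb (SD 0.170, 55 sites). From 15 to 17 Mb it was 0.426 (SD 0.130, 16 sites), and at all 16 sites the thm1_like index was the higher. The rise there came with a WTa_like mean of 0.357, below the 0.440 of the preceding stretch, and a thm1_like mean of 0.784 against 0.734. The last stretch, from 17 Mb, had a delta of 0.325 (SD 0.160, 10 sites). The SD given is that of single sites and does not measure the error of a stretch mean, and no test of these differences was made.

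**Figure D3:**
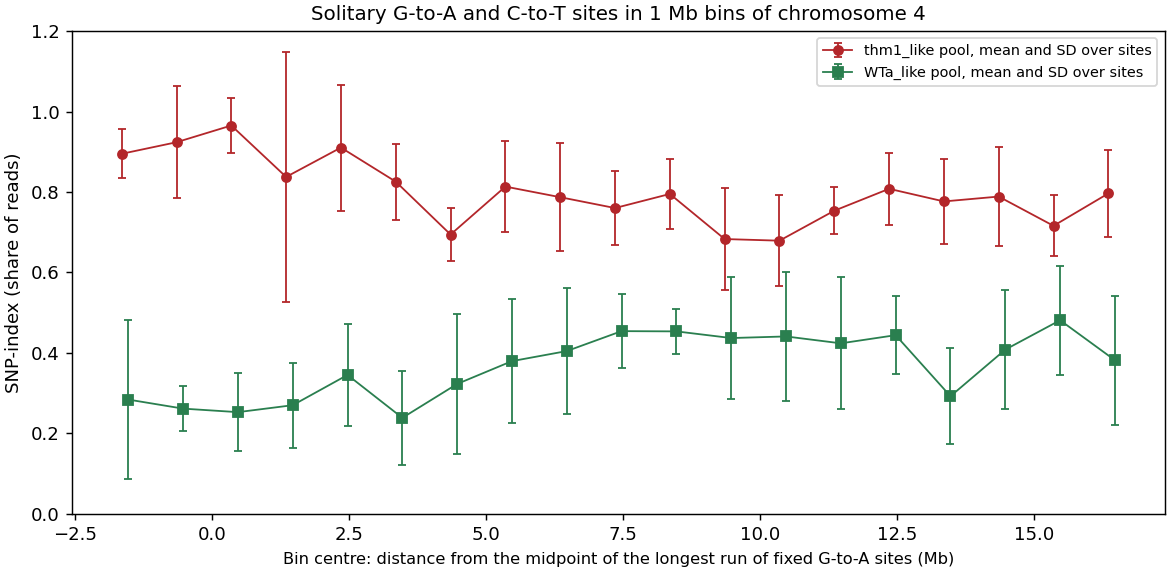
Mean SNP-index of solitary sites (G-to-A or C-to-T) in 1 Mb bins (5 to 13 sites each) for the thm1_like pool (circles) and the WTa_like pool (squares), against distance in Mb of the bin centre from the midpoint of the longest run of fixed G-to-A sites. Bars are the SD over sites. The pools are farthest apart in the third bin (0.966 against 0.253) and remain apart in every bin to the end of the chromosome.

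A site was called near-fixed when its thm1_like index was at least 0.9. Chromosome 4 had 39 such sites, and the other chromosomes together had 8, or 0.474% of their sites. The share over all nuclear sites, chromosome 4 included, was 2.36%. Of the 39, 37 were G-to-A, 1 was C-to-T, 1 was another substitution and none was an indel. All 39 were solitary. They fell in the upper arm (14), from 3 to 5 Mb (14) and in the lower arm (11), so near-fixation was not limited to the upper arm. Another 31 sites had an index from 0.85 up to the threshold, the nearest at 0.897, so the count depends on where the line is drawn.

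At 36 of the 39 near-fixed sites the WTa_like index was 0.5 or lower. At the 3 exceptions most WTa_like reads also carried the other allele. At position 915784 in PIT1, 36 of 38 thm1_like reads and 18 of 26 WTa_like reads carried the other allele. The site 8504970, 73 bp from AT4G14815, had 32 of 35 and 21 of 40 reads and still passed as higher (adjusted p = 0.00704, Fisher's exact test). The site in PIT1 did not pass, and 11776646 in AT4G22280, with 9 of 10 and 5 of 7, was too shallow to test.

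The upper-arm block of near-fixed G-to-A sites reached from 613008 to 2849135, a length of 2236 kb. It held 43 listed sites, and 29 of them broke it with a thm1_like index under 0.9. Of its 19 solitary G-to-A sites 14 did not break it. Over these 19 sites 16 of 463 thm1_like reads carried the WTa allele, a share of 3.46% (exact 95% interval 1.99 to 5.55%). By contrast both grouped G-to-A sites, both C-to-T sites, all 12 other substitutions and all 8 indels broke it. This was not particular to the block. Over the whole chromosome 1 of 60 other substitutions and 1 of 19 C-to-T sites were near-fixed, and no indel or grouped site was. The block was bounded by near-fixed G-to-A sites, so its first and last sites could not break it. The index of the 29 breaking sites ran from 0.0333 to 0.875.

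**Figure D4:**
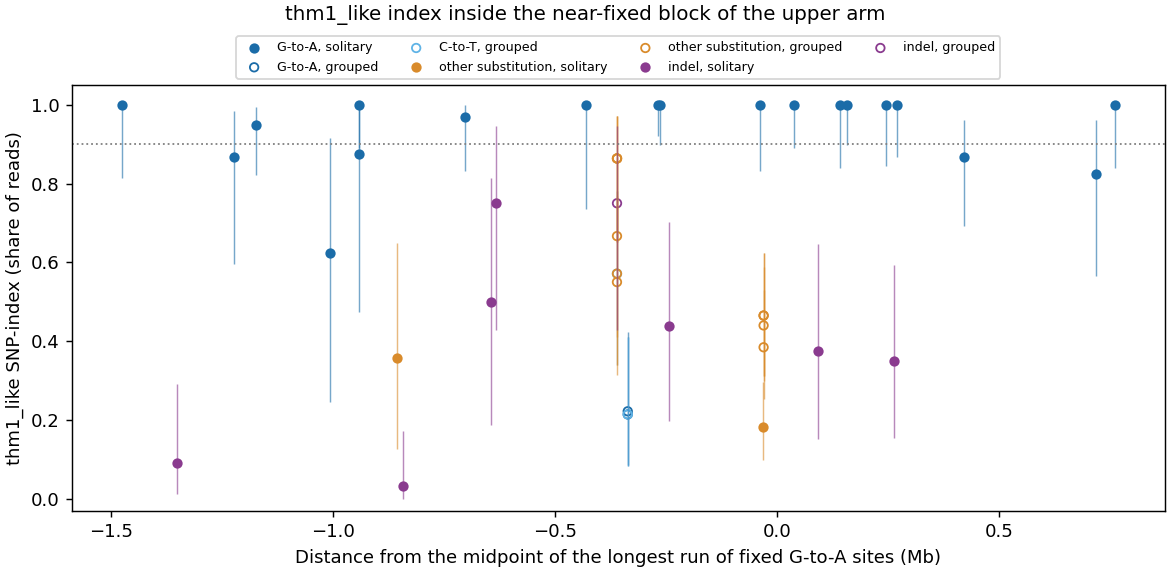
The thm1_like SNP-index of the 43 sites inside the near-fixed block, with exact 95% binomial intervals, against distance in Mb from the midpoint of the longest run of fixed G-to-A sites. The dotted line is the threshold of 0.9. The solitary G-to-A sites lie between 0.824 and 1 apart from 1 at 0.625, and all indels, other substitutions and grouped sites lie below the line.

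The 5 solitary G-to-A sites that broke the block did so by few reads. MLO1, a member of the family whose loss in other plants gives resistance to powdery mildew, has bounds from 1143888 to 1147562 and held 2 sites. At 1146618 all 32 thm1_like reads carried the other allele, against 3 of 18 WTa_like reads (adjusted p = 1.32e-07, Fisher's exact test). At 1147496, only 878 bp away, 7 of 8 thm1_like reads did, so the break rests on 1 read. The site 1081222 in AT4G02465 had 5 of 8 reads against 5 of 17, and WTa itself had only 4 reads there. Neither of these had enough thm1_like reads to be tested.

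Position 865318, in the RNA gene AT4G02795 (862789 to 865581), had 13 of 15 thm1_like reads against 7 of 20. DES-1-LIKE (2509053 to 2511145) encodes a sphingolipid desaturase, and at 2509581 it had 26 of 30 reads against 10 of 37. EHD2 (2804403 to 2808015) encodes an EPS15 homology domain protein of endocytosis, and at 2805771 it had 14 of 17 reads against 11 of 30. All 3 were nevertheless higher in the thm1_like pool, with adjusted p = 0.0427, 9.32e-05 and 0.0452 by Fisher's exact test. At each of the 5 sites the exact interval of the thm1_like index includes 0.9. At this depth a small share of WTa alleles at these sites cannot be told from near-fixation.

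Between 1147496 and 2509581 no solitary G-to-A site broke the block. AT4G03120 at 1386002 had 30 of 31 reads against 7 of 27, and the solitary G-to-A sites that followed up to 2358085 had no WTa read at all in the thm1_like pool. Among them was AT4G04340 at 2126019, whose synonym osca1 names a calcium channel of the osmotic stress response, with 32 of 32 reads against 11 of 37. The uninterrupted G-to-A run at 1, from 1820256 to 2358085, has its midpoint at 2.09 Mb. Inside that run lay 8 sites of other classes, none of them fixed.

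Another 15 breaking sites lay in 3 clusters, and most of them had many reads of the WTa allele, in contrast with the solitary G-to-A breaks. The cluster with the 11-base loss shown above spans 1727769 to 1727872 and has 8 sites of which 1 is C-to-T, 6 are other substitutions and 1 is the indel. Its thm1_like index ran from 0.550 to 0.864 and its WTa_like index from 0.400 to 0.579, so delta was positive at all 8, and none passed the test. At 1727841, 1727850 and 1727852, 19 of 22 thm1_like reads carried the other allele, and at the 11-base loss 9 of 12 did. The exact intervals of these sites include 0.9, as at the solitary G-to-A breaks. The cluster lies outside gene bounds, 44 kb from AT4G03820. Its nearest solitary G-to-A neighbours were fixed: 12 of 12 reads at 1657024 and 44 of 44 at 1820256.

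Farther on, 3 sites within 12 bp of the pseudogene AT4G03810 (1752016, 1752021 and 1752027) had 6 of 27, 6 of 28 and 6 of 28 thm1_like reads. The WTa_like pool had 5 of 15 at each. Here delta was negative (-0.119 to -0.111), and the values of the 3 sites were nearly the same. Whether they come from the same fragments was not tested. The third cluster, 2057944 to 2057971, lies where AT4G04265 and AT4G04270 overlap. Its 4 sites had an index of 0.385 to 0.465 in the thm1_like pool and 0.392 to 0.410 in the WTa_like pool, at 39 to 52 reads. These are deeper than most sites, and the pools differed there by at most 0.0549.

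The solitary breaks of other classes were mostly indels. CRK, also named CROOKED or ARPC5, encodes a subunit of the actin-nucleating Arp2/3 complex that shapes trichomes. A loss of 1 base at 736206 within its bounds was carried by 2 of 22 thm1_like reads and 6 of 18 WTa_like reads. A gain of 2 bases at 1245879, 1057 bp from GA1, which encodes the enzyme of the first committed step of gibberellin synthesis, had 1 of 30 against 7 of 22 reads. Its adjusted p was 0.0552 in Fisher's exact test. Their nearest solitary G-to-A neighbours on both sides had thm1_like indices of 0.867 or more.

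The substitution 2057432 had 12 of 66 against 15 of 47 reads, and the 1-base loss 2180425 had 6 of 16 against 14 of 30. Not all such sites leaned this way. A 1-base loss at 1443640 had 5 of 10 against 1 of 17 reads, and another at 1454376 in the pseudogene AT4G03300 had 9 of 12 against 7 of 19, with WTa at 3 reads. Over all 11 indels of the upper arm the mean delta was 0.0819 (SD 0.280), 7 higher and 4 lower.

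Upstream of the block the 4 solitary G-to-A sites nearest the chromosome end were high but not fixed. YAB3 encodes a YABBY transcription factor that acts in leaf polarity and had 22 of 27 against 5 of 31 reads at 74000 (adjusted p = 6.41e-05, Fisher's exact test). Position 77068, 1492 bp beyond YAB3, had 25 of 28 against 5 of 16. AT4G00560 at 241865 had 36 of 41 against 4 of 23, and SETH5 at 342550 had 13 of 15 against 1 of 8. In this end segment the WTa_like index of these sites was between 0.125 and 0.312. The exact intervals of their thm1_like index all include 0.9, so the start of the block depends on that threshold. The site in SETH5 was too shallow to test.

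From 3 to 5 Mb the annotation lists 48 protein-coding genes and 387 pseudogenes, and protein-coding bounds cover 3.52% of the sequence. In the lower arm they cover 61.9%, with 3541 protein-coding genes and 245 pseudogenes. This region held 69 sites, 33 of them grouped, and it was the most mixed of the chromosome. Of its 19 solitary G-to-A sites 13 were near-fixed, and 13 of the 16 tested passed as higher. At the 6 grouped G-to-A sites the mean index was 0.199 (thm1_like) and 0.400 (WTa_like), and all 6 were lower. The wide spread of the G-to-A index in this region, an SD of 0.372, came down to 0.261 without the grouped sites.

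Both protein-coding hits of G-to-A class here were fixed in the thm1_like pool. AT4G06534 at 3357746 had 11 of 11 against 2 of 11 reads, and AT4G06744 at 4071470 had 12 of 12 against 2 of 14, with WTa at 4 reads. Outside gene bounds, 3530538 had 42 of 42 against 10 of 34, and 4941967 had 30 of 30 against 10 of 36. The fixed sites thus extended to the far side of the region, and 5064034, just beyond it, had 10 of 10 against 5 of 21. The next fixed site was 7481346.

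Solitary G-to-A sites that were low in the thm1_like pool were few in this region. Position 3039701 had 9 of 29 against 4 of 39 reads, and 4243207, in the pseudogene AT4G07456, had 4 of 7 against 7 of 22. At 4243207 the exact interval of the thm1_like index (0.184 to 0.901) includes 0.9, and the site was too shallow to test. At 3047314 the pools ran the other way, with 1 of 15 against 9 of 21, the lowest delta of any solitary G-to-A site of the chromosome (-0.362). Its adjusted p was 0.123 in Fisher's exact test.

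The largest cluster of the chromosome lies at 4052720 to 4052887, outside gene bounds, with 11 sites of all 4 classes. Their index was 0.105 to 0.200 in the thm1_like pool and 0.308 to 0.517 in the WTa_like pool. The sites moved together regardless of class: the G-to-A, C-to-T, substitution and indel alleles within these 168 bp all had a negative delta. Sites this close can lie on the same fragments and are not separate measurements, and none of the 11 passed the adjusted test. The next cluster, 4065284 to 4065361, had 0.433 to 0.484 against 0.588 to 0.650. Yet the site in AT4G06744, 6109 bp beyond it, was fixed. Over the 19 clusters the median delta ranged from -0.500 to 0.432, with 8 clusters above 0 and 11 below, and the median of these was -0.0500.

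Among the solitary sites of other classes from 3 to 5 Mb, 1 followed the G-to-A sites closely. The substitution at 4264268, 1483 bp from AT4G07445, had 26 of 29 against 10 of 41 reads (adjusted p = 4.79e-06, Fisher's exact test). The substitution at 3591953 was fixed, with 9 of 9 against 4 of 10, and was too shallow to test. The reverse was seen at 3935092, where 0 of 28 thm1_like reads and 20 of 36 WTa_like reads carried the other allele (adjusted p = 3.50e-05, Fisher's exact test). Only 4323 bp before it, a loss of 2 bases at 3930769 had 0 of 14, which allows a share of up to 21.4%, against 7 of 12. Its adjusted p was 0.0184 in Fisher's exact test. The nearest G-to-A site before them, 3917395, had 34 of 34 reads against 14 of 31, and the nearest after them, the grouped site 4052720, had a thm1_like index of 0.200.

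In the lower arm most G-to-A sites lay in protein-coding bounds, 76 of 108, and the thm1_like index was intermediate rather than fixed. Of 95 tested, 38 were higher and none lower, against 15% and 1.68% of nuclear G-to-A sites. In the first part of the arm the thm1_like index was the higher at the following sites of 3 genes. MAPKKK9, a MAP kinase kinase kinase also named MEKK2 or SUMM1, had 7 of 8 against 0 of 9 reads at 5388157, where 0 of 9 allows a share of up to 33.3%, and was too shallow to test. EARLI1, named for its induction by aluminium, had 25 of 32 against 9 of 25 at 7406140 (adjusted p = 0.0268, Fisher's exact test). AT4G11380 held 2 sites at 6922140 and 6925193 with 25 of 38 against 7 of 34 and 8 of 12 against 2 of 10, and their deltas (0.452 and 0.467) lay close together.

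Known genes in the middle of the arm included several with small differences. WRKY29, a transcription factor of immune signalling, had 18 of 25 against 13 of 22 reads at 12292416. HSF1, a heat shock factor, had 14 of 20 against 6 of 10 at 9870403. FC2, a LAMMER-type protein kinase gene, had 12 of 20 against 12 of 29 at 12755772. None of these 3 passed the test. The only solitary G-to-A sites of the arm with a negative delta lay here: GSNAP, a gamma-SNAP of vesicle fusion, at 11014778 (7 of 15 against 14 of 22), AT4G24840 at 12798976 (11 of 23 against 10 of 15) and PIRL8 at 13213012 (13 of 18 against 13 of 17). None of the 3 passed, and their intervals are wide at these depths.

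Within the same middle stretch single sites nonetheless differed strongly. AT4G23030 at 12072919 had 17 of 25 against 1 of 18 reads (adjusted p = 0.00172, Fisher's exact test). BGLU47, a beta-glucosidase gene, had 25 of 27 against 12 of 31 at 11563443. CRU3, which encodes the seed storage protein cruciferin, had 39 of 44 against 21 of 39 at 14088585. AMY1, an alpha-amylase gene, had 20 of 24 against 10 of 25 at 12853778, and the myosin gene VIIIB had 29 of 35 against 18 of 39 at 13695748. Neighbouring sites therefore gave deltas from below 0 to 0.624 within 1 Mb.

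Toward the end of the arm the deepest site in protein-coding bounds that passed was 16324817 in AT4G34070, with 53 of 60 against 15 of 47 reads (adjusted p = 3.58e-07, Fisher's exact test). AT4G32700 at 15772094 had 21 of 24 against 7 of 29, and GLUR2, a glutamate receptor-like channel gene, had 16 of 22 against 4 of 20 at 16793413. ENP, an enhancer of the auxin transport mutant pinoid, had 13 of 15 against 4 of 11 at 15392449 and did not pass. CHB3, a SWI3-type subunit of chromatin remodelling complexes, had 16 of 18 against 11 of 18 at 16464600 and did not pass either.

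Leaving aside G-to-A sites under 10 reads in either pool, further ones of highest delta in their 1 Mb bins, each picked by that value, were AT4G09620 at 6079026 (13 of 16 against 4 of 14), AT4G15040 at 8582434 (10 of 10 against 3 of 15) and AT4G16563 at 9330783 (35 of 41 against 14 of 34). AT4G19520 at 10645122 had 16 of 19 against 8 of 18, AT4G28570 at 14120245 had 11 of 12 against 6 of 16, and 13325627, 37 bp from AT4G26340, had 14 of 16 against 6 of 22. The sites in AT4G09620 and AT4G19520 did not pass the test, while 2 other G-to-A sites in the bin of the former and 1 in that of the latter did. In the upper arm and from 3 to 5 Mb the same choice gave 613008 (18 of 18 against 5 of 29), 2849135 in the pseudogene AT4G05581 (21 of 21 against 2 of 21) and 3825768 in the pseudogene AT4G06652 (19 of 20 against 3 of 23).

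The class of the solitary transitions changed at the far end. Up to 17160246 the chromosome had 150 solitary G-to-A sites and only 2 of C-to-T class, the latter at 7593590 and in AT4G13370 at 7779647. From 17173402, a step of 13156 bp, to 18427927 all 8 solitary sites of these 2 classes were C-to-T. Their mean indices were 0.767 (thm1_like) and 0.428 (WTa_like), with a delta of 0.339 (SD 0.171). The last 8 G-to-A sites had 0.747 and 0.397, with a delta of 0.350 (SD 0.121). The pools therefore ran on across the change of class without a step larger than the spread over sites. SEC14, named for a secretion protein, had the highest thm1_like index of the 8, with 14 of 15 against 9 of 28 reads at 18245838 (adjusted p = 0.00373, Fisher's exact test). PnsL4, a lumenal subunit gene of the chloroplast NDH complex, had 18 of 24 against 17 of 40 at 18427927 and did not pass.

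Of the 11 sites that passed as lower in the thm1_like pool, 8 were indels and 3 were other substitutions. Their thm1_like index was under 0.3 at all 11, so their direction follows from the lowest listed index. The indels had few or no thm1_like reads of the other allele. A gain of 2 bases at 366518 in AT4G00880, named SAUR31 among the small auxin up-regulated genes, had 0 of 28 against 5 of 14 reads, where 0 of 28 allows a share of up to 10.7%. At 8786753, 1906 bp from the cytochrome P450 gene CYP705A4, the counts were 0 of 21 against 10 of 25. At 4227060 in the pseudogene AT4G07440 they were 0 of 21 against 11 of 30, and 0 of 21 allows a share of up to 14.3%.

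The 2-base loss 3930769, given above, also had none. The other 4 called indels had 1 to 3 such reads in the thm1_like pool. They were 7429411 (3 of 21 against 16 of 29), 14455010 (2 of 31 against 13 of 31), 15090686 in AT4G30990 (1 of 20 against 10 of 23) and 17228661 (2 of 41 against 14 of 40). Their adjusted p-values in Fisher's exact test lay between 0.0126 and 0.0429. The substitutions were 3935092, given above, 10310825, which is 205 bp from MYB98, a transcription factor gene of pollen tube guidance (10 of 45 against 19 of 34), and 14227368 in AT4G28811 (3 of 19 against 13 of 21). These sites lay in every region of the chromosome, from 366518 to 17228661, with no grouping in the block.

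Sites of these classes that passed as higher numbered 4, including 4264268. A loss of 1 base at 5706979, 1540 bp from the arginase gene ARGAH1, had 25 of 30 against 16 of 40 reads. A substitution at 9374205 in AT4G16650 had 19 of 31 against 5 of 25, and a loss of 1 base at 16449310, 1488 bp from AT4G34400, had 20 of 30 against 4 of 21. Their thm1_like index ran from 0.613 to 0.897.

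The mean delta of the indels was 0.0819 in the upper arm (SD 0.280, 11 sites) and -0.211 from 3 to 5 Mb (SD 0.260, 8 sites). In the lower arm it was -0.127 (SD 0.220, 42 sites). With reads summed over the upper-arm indels, the other allele had 29.3% of thm1_like reads and 28.8% of WTa_like reads. Differences between the regions were not tested. Of the 61 indels, 34 had a thm1_like index under 0.3 and were listed through the WTa_like pool alone, and 11 were listed through the thm1_like pool alone. The 16 with an index of at least 0.3 in both pools had a mean delta of 0.0239 (SD 0.224), 6 higher and 10 lower. For the solitary G-to-A sites the same restriction left 93 sites with a mean delta of 0.328 (SD 0.177), 90 of them higher. The restriction removes every site with a thm1_like index under 0.3, so the indel mean had to rise under it, and nothing is read from that rise.

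By their bases, 56 of the 61 indels added or removed only A and T, among them 35 of 1 base and 21 of the pair AT or TA. These 56 had a mean thm1_like index of 0.239 and a mean delta of -0.119 (SD 0.230), 42 of them lower. The 5 with a C or G had a mean delta of 0.105 (SD 0.381). Gains of sequence relative to WTa (20) had a mean delta of -0.176 and losses (41) of -0.0635. This difference was smaller than the SD over single sites and was not tested. The 13 indels within protein-coding bounds had a mean thm1_like index of 0.129 and a mean delta of -0.218 (SD 0.167), 11 lower. RPS6, a ribosomal protein S6 gene, had 0 of 11 against 5 of 15 reads at 15346953, where 0 of 11 allows a share of up to 27.3%. CBL10, a calcium sensor gene of salt tolerance, had 4 of 34 against 12 of 33 at 15924638, and ROT3, a P450 gene of brassinosteroid synthesis, had 8 of 26 against 6 of 26 at 17189038.

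The 60 other substitutions were of 10 kinds, and no kind behaved like the G-to-A sites over more than a few sites. The 13 T-to-C sites had a mean delta of -0.126 (SD 0.132), 11 of them lower, and the 9 A-to-G sites had -0.0500 (SD 0.203). The 11 T-to-A sites had 0.116 (SD 0.281). The 2 G-to-T sites had thm1_like indices of 0.864 and 1. Of the 60, 42 were grouped, so many of them lie within 350 bp of another.

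Gene bounds of the annotation placed 116 of the 300 sites in protein-coding genes, 38 in pseudogenes, 6 in RNA genes and 140 outside any gene. Whether a site lies in an exon, an intron or an untranslated region was not determined. Protein-coding bounds cover 53.1% of the chromosome and held 90 of the 150 solitary G-to-A sites (60.0%). They held 6 of the 63 grouped sites (9.52%). The solitary G-to-A sites in protein-coding bounds had a mean delta of 0.404 (SD 0.234, 90 sites), those in pseudogenes 0.582 (SD 0.183, 18 sites) and those outside genes 0.442 (SD 0.253, 38 sites). The pseudogene sites lay mainly in the upper arm and from 3 to 5 Mb (14 of 18), where delta was higher for every kind of place, so place and position cannot be told apart.

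The 116 sites hit 111 protein-coding genes. Of 100 tested sites 36 were higher, against 29.6% of tested chromosome 4 sites and 8.2% of nuclear sites. Another 3 were lower, against 4.12% and 4.41%. In the G-to-A class 33 of 76 tested sites in protein-coding bounds were higher, against 69 of 140 on the whole chromosome. Only MLO1, AT4G04265, AT4G05612, AT4G11380 and ABCG42 held more than 1 site. The 4 sites of AT4G04265 and the 2 of AT4G05612 were grouped, with deltas between -0.0500 and 0.0549. ABCG42, an ABC transporter gene, had 9 of 14 against 7 of 13 reads at 8690227 and 6 of 9 against 5 of 20 at 8693003. The deltas of these sites, 2776 bp apart, were 0.104 and 0.417.

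Few genes of the annotation carry a descriptive name, so groups by name were small. Sites in genes matched by words for kinases or receptors numbered 5, among them MAPKKK9, RLP47, FC2 and GLUR2. Their deltas ran from 0.186 in FC2 to 0.889 in RLP47, and 2 of 3 tested were higher. Of the genes named here only GLUR2 held a site that passed. The other higher site lies in a gene whose symbol names neither a kinase nor a receptor. Beside these counts and those that follow stand 36 of 100 for all tested sites in protein-coding bounds and 8.2% for all nuclear sites. Genes named as transcription factors or zinc finger proteins held 4 sites (YAB3, HSF1, WRKY29 and the indel in ZFWD1) with a median delta of 0.115 and 1 of 4 higher. Transporters and channels held 3 sites (ABCG42 and GLUR2), with 1 of 2 tested higher. Cytochrome P450 genes also held 3 (CYP71A20, CYP706A1 and ROT3), with none of 3 passing Fisher's test and 1 at an unadjusted p under 0.05. The MLO1 sites were the only ones of a gene named for disease resistance or mildew, and no gene named as F-box or ubiquitin was hit. Sites in genes named for an organelle, PMP22 of the peroxisome (where it overlaps AT4G04480) and NdhS of the chloroplast NDH complex, had deltas of 0.810 and 0.414. PnsL4, described above, was not matched by the words of this group, and its delta was 0.325. Over all 116 sites the median delta was 0.338.

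Solitary sites of G-to-A or C-to-T class on the other chromosomes give the level away from chromosome 4. Their mean delta was 0.0545 on chromosome 1 (360 sites), 0.0845 on chromosome 2 (184 sites), 0.137 on chromosome 3 (283 sites) and -0.0864 on chromosome 5 (278 sites), against 0.430 on chromosome 4 (SD 0.234, 160 sites). The WTa_like means were alike, 0.358 to 0.462 elsewhere and 0.368 on chromosome 4, and the thm1_like means were 0.376 to 0.518 elsewhere and 0.798 on chromosome 4. Grouped other substitutions had a mean delta of 0.00893 on the other chromosomes (174 sites), and solitary indels had -0.139 (226 sites). On these last classes chromosome 4, with -0.0391 and -0.105, lay within the spread over sites of the rest of the genome.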

How the data were processed

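Leaf DNA of WTa, thm1_like and WTa_like, 1 library each, was extracted with CTAB, sheared and built into TruSeq libraries, per the labels' protocols. Positions are on TAIR10, per the submitters' processing notes. In the sources used here no aligner, variant caller or filter is named. The deposited table gives a raw count of reference and alternative reads per site and pool, per the file headers. It gives the authors' SNP-index as a fraction and their delta, taken as a score, per the file headers. The recomputed index differed from the deposited fraction by at most 0.005, and the recomputed delta by at most 0.01. Chromosome 4 depth was a median of 23 thm1_like, 22 WTa_like and 12 WTa reads per site.

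Index, delta and class were computed from the reads with Python 3.11.15, pandas 2.3.3 and SciPy 1.17.1. Where both pools had at least 10 reads, a site was tested by two-sided Fisher's exact test, Benjamini-Hochberg adjusted over 1816 nuclear sites, after a check on simulated data. Regions were bounded at 3 and 5 Mb. Genes came from a RefSeq table of assembly TAIR10.1, which names chromosome 4 as the deposited table does. It holds gene bounds only. Gene groups used words in symbols and synonyms. Sites, lists and tests were chosen with earlier results of these data known, and the division by spacing (350 bp) after seeing them.

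Sites were named by rule: sites of G-to-A or C-to-T class breaking the block, the 6 indels or substitutions of lowest delta in it, sites called lower, the G-to-A site of highest delta in each 1 Mb bin with at least 3 of them, leaving aside those under 10 reads in either pool, the 15 called sites of largest delta in protein-coding bounds, and called indels or substitutions that were higher. All other sites were named after their values were seen, or for their gene's known role. A part of the rule on promoter windows could not be applied. One site picked by the rule is not reported here.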

Additional observations from a re-analysis of the deposited data

How the results depend on the processing

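Over 87 alternatives, 69 left the value within its limits and 18 moved it. A turn of direction was not scored separately from a move. Higher and lower calls numbered 33 and 1 with Bonferroni adjustment, and 51 and 1 at an adjusted 0.01. Without indels in the tests 3 lower calls were left. Leaving out grouped sites, an alternative added after seeing the data, gave mean deltas of 0.434 for G-to-A and 0.367 for C-to-T. It gave 0.667 for the upper arm and 0.567 for the region from 3 to 5 Mb, and 14 breaking sites instead of 29. Medians in place of means gave -0.149 for indels, 0.667 for the upper arm (mean 0.571) and 0.575 for the region from 3 to 5 Mb (mean 0.383). That region had 0.477 with bounds at 2 and 6 Mb and 0.303 with C-to-T sites added. The upper arm had 0.623 at sites with at least 20 reads. Near-fixed sites numbered 70 at a threshold of 0.85 instead of 39. Grouped sites had a mean delta of -0.0383, and 0.106 when sites up to 10000 bp apart were counted as grouped. The cause of that change of sign was not tested. No paired analysis was possible because each group has 1 library, and for the same reason no library could be left out. Depth limits single sites: at a median of 23 reads the interval around an index near 0.5 runs from 0.306 to 0.732. This is the interval of 1 pool and not the limit of the test. A difference as large as 0.389, at 4918657 (16 of 18 against 9 of 18 reads), did not pass.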
